A study of Homo sapiens with 16 samples.

Results

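In K562 cells treated with phorbol 12-myristate 13-acetate (PMA), 178 protein-coding genes stood at no more than 0.33 of their untreated RNA level after 6 h and were back near it after 72 h. K562 is an established human leukaemia cell line that carries the BCR-ABL1 fusion and can take on erythroid or megakaryocytic features, and PMA is a phorbol ester that stands in for diacylglycerol and activates protein kinase C. The genes were chosen by their level in CPM, which is the estimated reads of a gene per 1000000 reads of its library. A gene was kept with a mean of at least 10 CPM at 0 h, a 6 h mean of at most 0.33 of that, and a 72 h mean between 0.75 and 1.33 of it. Of 9509 protein-coding genes at 10 CPM or more at 0 h, 182 met these conditions, and 4 were left out by name (GATA1, ZNF and histone genes are not part of the set), which leaves 178 (1.87%). The levels at 0, 6 and 72 h therefore selected the set. They are given below as a description, and tests are confined to libraries of other time points.

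All cells were wild-type K562 and all except the 0 h cells received 25 nM PMA, an agent used to drive these cells toward a megakaryocyte-like state. RNA was taken before treatment (0 h), early (0.5 and 1.5 h), in the first hours (3 and 6 h) and after days (24, 48 and 72 h), with 2 libraries per time point and 16 in all, from total RNA depleted of ribosomal RNA. The medium was changed after 24 h and 48 h, and the series has no untreated culture at the later times, so that the effects of PMA, of time in culture and of fresh medium cannot be told apart. The labels do not say that the replicates were separate cultures, and p-values then measure only the spread between these libraries, which may be technical. In bulk RNA, fewer cells of one kind and less RNA per cell cannot be told apart either.

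The libraries held 27285773 to 54056289 estimated reads, and a count of 3 reads corresponds to 0.0555 to 0.11 CPM. Replicate 2 at 0 h had the shortest fragments, with a mean of 199.4 nt against 210.2 to 248.7 nt in the others. The globins HBG1, HBG2 and HBE1 and the genes TFRC and ALAS2 were all present at 0 h, HBG2 at 811 and 962 CPM. Of the markers of other cell types, CD3E, MS4A1 and ALB lay at or below 0.343 CPM in every library, and CDH1, CD3D and EPCAM reached 4.65, 16.4 and 70.4 CPM. The part of these markers in the results was not tested.

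A messenger RNA falls when its synthesis drops, and it falls fastest when it is also short-lived, so RNAs of regulators with rapid turnover tend to lead any response to a stimulus. BCR-ABL1 in these cells is known to activate STAT5, a transcription factor that binds paired TTC and GAA sequences and whose known targets include CISH, a brake on cytokine receptors, and BCL2L1, which encodes the survival protein BCL-XL. Transcription factors such as LYL1, TCF4 and MEF2C form networks that hold a blood progenitor in its state. The ID proteins are inhibitors that keep basic helix-loop-helix factors from DNA. CISH, BCL2L1, LYL1, TCF4, MEF2C, ID1 and ID3 were among the 178 genes. RNA turnover and STAT5 activity were not measured, and their part in the fall was not tested.

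The promoter of CISH (ENSG00000114737, chr3:50606490-50611831 on the minus strand of GRCh38) is shown because this gene had the deepest fall between 0.5 and 3 h, and that of PARS2, a mitochondrial prolyl-tRNA synthetase (ENSG00000162396, chr1:54756898-54764514, minus strand), because it had the deepest fall between 0.5 and 1.5 h. Both are the 250 bases before a RefSeq transcription start, read 5′ to 3′ on the minus strand of GRCh38.p14, with matches to TTCNNNGAA, the STAT-type palindrome, in capitals. The CISH sequence is chr3:50611775-50612024 and the PARS2 sequence is chr1:54764524-54764773.
CISH promoter: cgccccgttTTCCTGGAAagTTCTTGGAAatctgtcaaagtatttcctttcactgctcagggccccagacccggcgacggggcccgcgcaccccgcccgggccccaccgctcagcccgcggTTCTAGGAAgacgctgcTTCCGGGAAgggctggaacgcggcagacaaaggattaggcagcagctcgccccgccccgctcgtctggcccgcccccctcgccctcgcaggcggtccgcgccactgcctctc
PARS2 promoter: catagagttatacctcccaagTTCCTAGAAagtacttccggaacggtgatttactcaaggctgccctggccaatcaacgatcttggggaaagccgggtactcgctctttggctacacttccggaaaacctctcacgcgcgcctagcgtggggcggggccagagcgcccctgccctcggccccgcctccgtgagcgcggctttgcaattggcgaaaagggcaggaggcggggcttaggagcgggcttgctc
The CISH promoter held 4 matches, which start 241, 230, 129 and 112 bases before the transcription start, and the PARS2 promoter held 1, at 229 bases before it.

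A RefSeq promoter whose start lay within 100 bases of the main transcript's start was at hand for 109 of the 178 genes and for 5586 of the protein-coding genes at 10 CPM or more. In the windows from 250 bases before to 50 after the start, 7 of the 109 (6.42%) held a TTCNNNGAA match, AKIP1, C1RL, CHCHD4, CISH, EDEM2, LCP2 and PARS2, against 6% of the 5586. BCL2L1 was not among the 7, and whether its promoter was among the 109 is not given here. CISH was among the 2 promoters of the 5586 with at least 4 matches. The motif was added once the members had been seen, and a match is a description of letters, not a binding site. The ETS motif CCGGAAG was present in 13.8% of the 109 promoters and in 23.9% of all 5586, and the YY1 motif AAGATGGCG in 1 promoter (0.917%) against 5.42%. The GC box GGGCGG, bound by SP and KLF factors, was found in 80.7% against 75.4%, the E-box CACGTG in 11% against 10.8%, and the AP-1 motif TGANTCA in 5.5% against 3.67%. Both strands were searched, and motifs may overlap.

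Several members carry the AU-rich nonamer TTATTTATT, an element known from short-lived messenger RNAs, in the 3′ untranslated region. The 29-base windows below come from the GENCODE release 29 main transcript of 4 genes described further on, with the nonamer in capitals. They lie at chr3:50607094-50607122 (CISH, minus strand), chr6:43786286-43786314 (VEGFA, plus), chr5:170248499-170248527 (LCP2, minus) and chr15:40287939-40287967 (PLCB2, minus) of GRCh38.
CISH: tatacactatTTATTTATTtattctcctt
VEGFA: ttgttatcatTTATTTATTggtgctactg
LCP2: atcccataatTTATTTATTcttcttcaat
PLCB2: tttatgaggtTTATTTATTtttctctttc
The nonamer was found in 10 of 171 members with such a region (5.85%) and in 8.8% of the 8947 protein-coding genes compared. Per kilobase of untranslated region, the nonamer occurred 0.0592 times in the members and 0.0657 times in the comparison genes. The shorter pentamer ATTTA occurred 1.71 and 2.26 times. Both the share of genes with a nonamer and the density of the pentamer were thus below those of the comparison genes, a description with no test. The nonamer densities lay closer together in proportion, and the members' regions were shorter (median 859 nt against 1161 nt). CISH and ZC3H6 had 2 and 6 nonamers, with overlapping matches counted. The 2 of CISH overlap in the single stretch shown above, where capitals mark only the first.

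The set moved down step by step to 6 h and was mostly back at 24 h. After 0.5 h its median ratio to 0 h was 0.9, where that of all protein-coding genes at 10 CPM or more was 0.998. After 1.5 h the medians were 0.79 and 0.934, and after 3 h they were 0.539 and 0.813. The 6 h medians were 0.265 for the set, as chosen, and 0.744 for all. By 24 h the set was at 0.846 and all genes at 0.885. The medians were 0.921 and 0.875 by 48 h, and 0.922 and 0.861 by 72 h. These depths depend on the scaling. With TMM-scaled CPM, which allows for a shift in library composition, the 3 h median of the set was 0.658. Its 6 h median was then 0.341, above the limit of 0.33. The 24 h median of the set became 1, so its shortfall at that time was not seen on this scale. The ranges counted next and the figures use CPM without TMM scaling. At 3 h, 29 of the 178 genes had already come to 0.33 or less, 127 lay between 0.33 and 0.75, and 22 were still at 0.75 or more. At 24 h, 114 were back in the band from 0.75 to 1.33, 60 were below it and 4 above. By 48 h only 15 remained below and 7 lay above. A total of 169 genes were lowest at 6 h and 9 at 3 h.

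**Figure D1:**
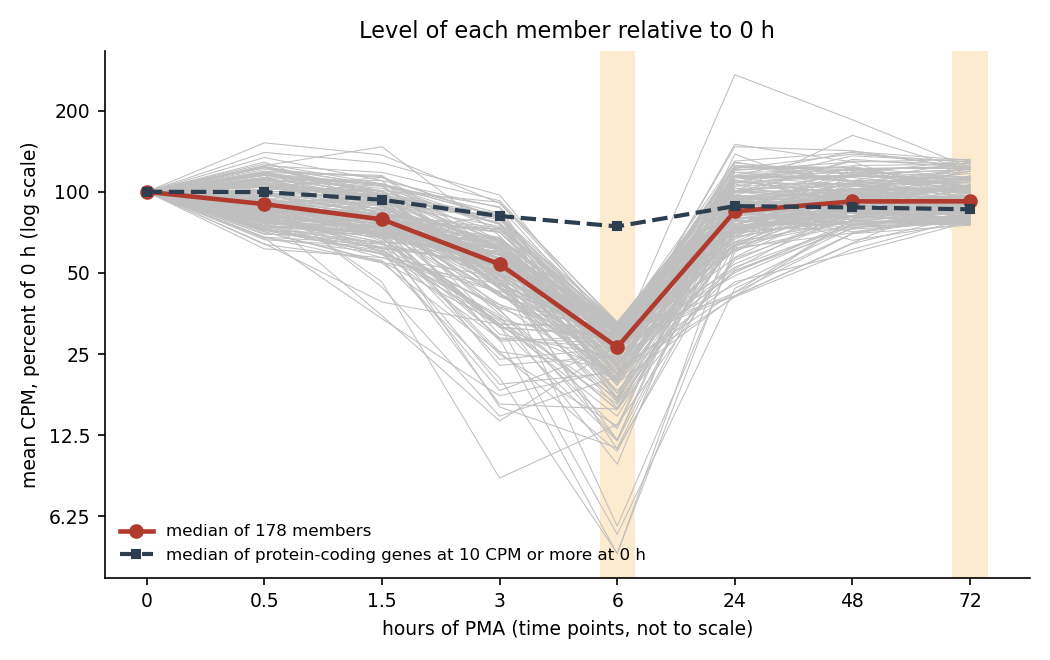
Mean CPM of each member as a percentage of its 0 h mean (log axis) at the 8 time points, one grey line per gene, with the median of the members in red and that of all protein-coding genes at 10 CPM or more dashed. The shaded times, with 0 h, chose the set, and the red median is 53.9% after 3 h, 26.5% after 6 h and 84.6% after 24 h. INTS3 is left out because it is listed at 0 at 6 h.

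**Figure D2:**
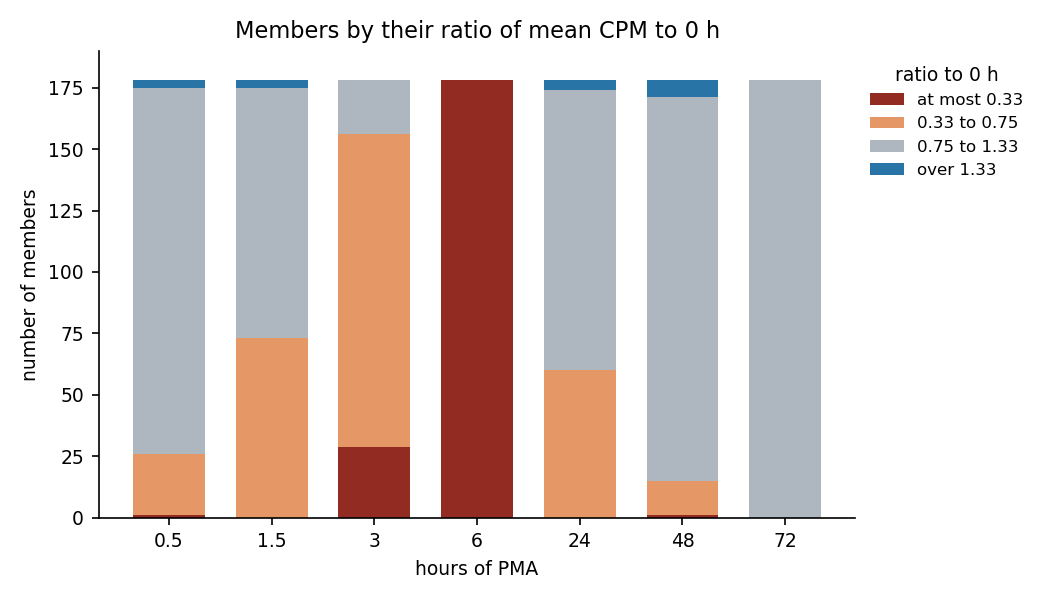
Number of the 178 members in 4 ranges of mean CPM relative to 0 h, by hours of PMA. At 3 h, 29 genes are in the lowest range, and at 24 h 114 are back between 0.75 and 1.33; the bars at 6 and 72 h are fixed by how the genes were chosen.

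A fall to 0.33 of the 0 h level by 6 h was seen in 1083 protein-coding genes at 10 CPM or more once the names above were left out. Of these, 178 (16.4%) were back in the band at 72 h, 854 stayed below it and 51 were above it. The choice depended on the scaling: with TMM-scaled CPM, which corrects for a shift in library composition, 96 genes met the same conditions, 65 of them among the 178. With TPM, an abundance corrected for transcript length, summed per gene, 179 genes met them, 86 of them among the 178. Each replicate was also read on its own. This is a description, since the same 0, 6 and 72 h libraries chose the set and the replicates may not be separate cultures. By the means of both replicates, 11.7% of all 9509 genes were at or under 0.33 at 6 h, and 40.8% were in the band at 72 h. The 160 genes that met the conditions in replicate 1 alone had a median 6 h ratio of 0.254 and a median 72 h ratio of 0.945 in replicate 2, where 127 were at or under 0.33 at 6 h, 131 in the band at 72 h, and 100 met every condition. The 206 genes that met the conditions in replicate 2 alone had medians of 0.287 and 0.925 in replicate 1, where 138 were at or under 0.33 at 6 h, 160 in the band at 72 h, and the same number, 100, met every condition.

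Genes near the limits show how narrow they are. ING4, a subunit of histone acetyltransferase complexes, and C1orf74 entered at 10.16 and 10.37 CPM at 0 h, while RAG1 and WDR25 missed at 9.971 and 9.955 CPM. At the limit on the 6 h ratio, B4GALT7 (0.3294) and ICA1 (0.3291) were inside and DNAAF2 (0.33) and ATP6V1E2 (0.3304) outside. At the limits on the 72 h ratio, CCDC15 (0.7517) and ZDHHC8 (0.7525) stood against DOK1 (0.7495) and PSKH1 (0.7487), and DIXDC1 (1.323) and DHX32 (1.311) against PITX1 (1.334) and DLG3 (1.344).

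The first test asked whether the fall had begun before 3 h, in libraries that had no part in choosing the genes. All 178 genes passed the low-count filter, and edgeR's quasi-likelihood test with Benjamini-Hochberg adjustment over 17559 genes was used throughout, on TMM-scaled counts. Between 0.5 and 1.5 h, 6 of the 178 genes were lower and 0 higher at an adjusted p under 0.05, against 1.67% lower and 4.11% higher among all genes tested. They were PARS2, C1orf74, CISH, SMIM3 and the related inhibitors ID1 and ID3, whose proteins bind basic helix-loop-helix factors and keep them from DNA. CISH was measured at 47.1 and 47.3 CPM at 0.5 h and 22.7 and 24 CPM at 1.5 h, a log2 difference of -0.94 (SE 0.15, adjusted p = 0.00198). PARS2 went from 10.6 and 9.67 CPM to 4.34 and 4.33 CPM, a log2 difference of -1.15 (SE 0.15, adjusted p = 0.000245). ID1 went from 18.8 and 18 CPM to 8.14 and 10.4 CPM (log2 -0.91, SE 0.2, adjusted p = 0.0149). In each of these 3 genes the libraries of the 2 times did not overlap. Without replicate 1 or 2 of 0.5 h or replicate 1 of 1.5 h 3 of these calls were made, and without replicate 2 of 1.5 h 4. Those of CISH, PARS2 and C1orf74 were made in each case, and the call of ID1 was lost without the first 3 of these libraries (log2 -0.73 to -0.96, adjusted p 0.0657 to 0.203).

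Between 1.5 and 3 h the set fell on a broad front: 94 of 178 genes were lower and 1 higher, against 12.1% lower and 13% higher of all genes tested. The median log2 difference was -0.37 over the 178 genes and 0.03 over all genes tested. The 1 gene called higher was PFKFB4, which sets the level of a glycolytic regulator metabolite (14 and 12.3 CPM at 1.5 h, 16 and 14.4 CPM at 3 h). Its log2 difference of 0.41 fell to 0.21 (adjusted p = 0.231) when scaled to total counts. The call was also lost with no low-count filter, with only the time points compared in the fit, and without replicate 1 or 2 at 1.5 h or replicate 1 at 3 h (adjusted p 0.0649 to 0.254).

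Over the whole step from 0.5 to 3 h, 104 of 178 genes (58.4%) were lower and 0 higher, with a median log2 difference of -0.47. Of all genes tested 18% were lower and 19.4% higher. Of the 9509 protein-coding genes at 10 CPM or more, 23.8% were lower. These share the members' floor of 10 CPM but were not matched to them in level or in fall. Their 0 h median was 48.4 CPM against 30 CPM in the members, and 11.7% of them were at 0.33 or less at 6 h. In CPM, both 3 h libraries lay below both 0.5 h libraries for 175 of the 178 genes and for 63.2% of the 9509. The deepest falls were those of CISH (log2 -3.15), C1orf74 (-2.44), PARS2 (-2.25), BCL2L1 (-2.17), MMD (-2.08) and SMIM3 (-1.94). When a trend with the GC content of transcripts was removed from each library, 88 genes were lower and 4 higher, with a median of -0.30 where that of all genes moved to 0.24.

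CISH had the deepest trough before 6 h. It stood at 46.3 and 54.6 CPM at 0 h, 5.07 and 3.68 CPM at 3 h, 7.22 and 6.56 CPM at 6 h, 27.6 and 30 CPM at 24 h, 46.6 and 47.5 CPM at 48 h, and 38.4 and 48.9 CPM at 72 h. Both 3 h libraries were below every other library, and both 24 h libraries lay between the trough and the 48 h level. The log2 difference from 0.5 to 3 h was -3.15 (SE 0.17, adjusted p = 9.35e-09), and that from 3 to 24 h was 2.67 (SE 0.17, adjusted p = 2.3e-08). The other 8 genes lowest at 3 h were SALL2, SMIM3, CCDC8, ID1, FUT10, MMD, PARS2 and C1orf74.

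**Figure D3:**
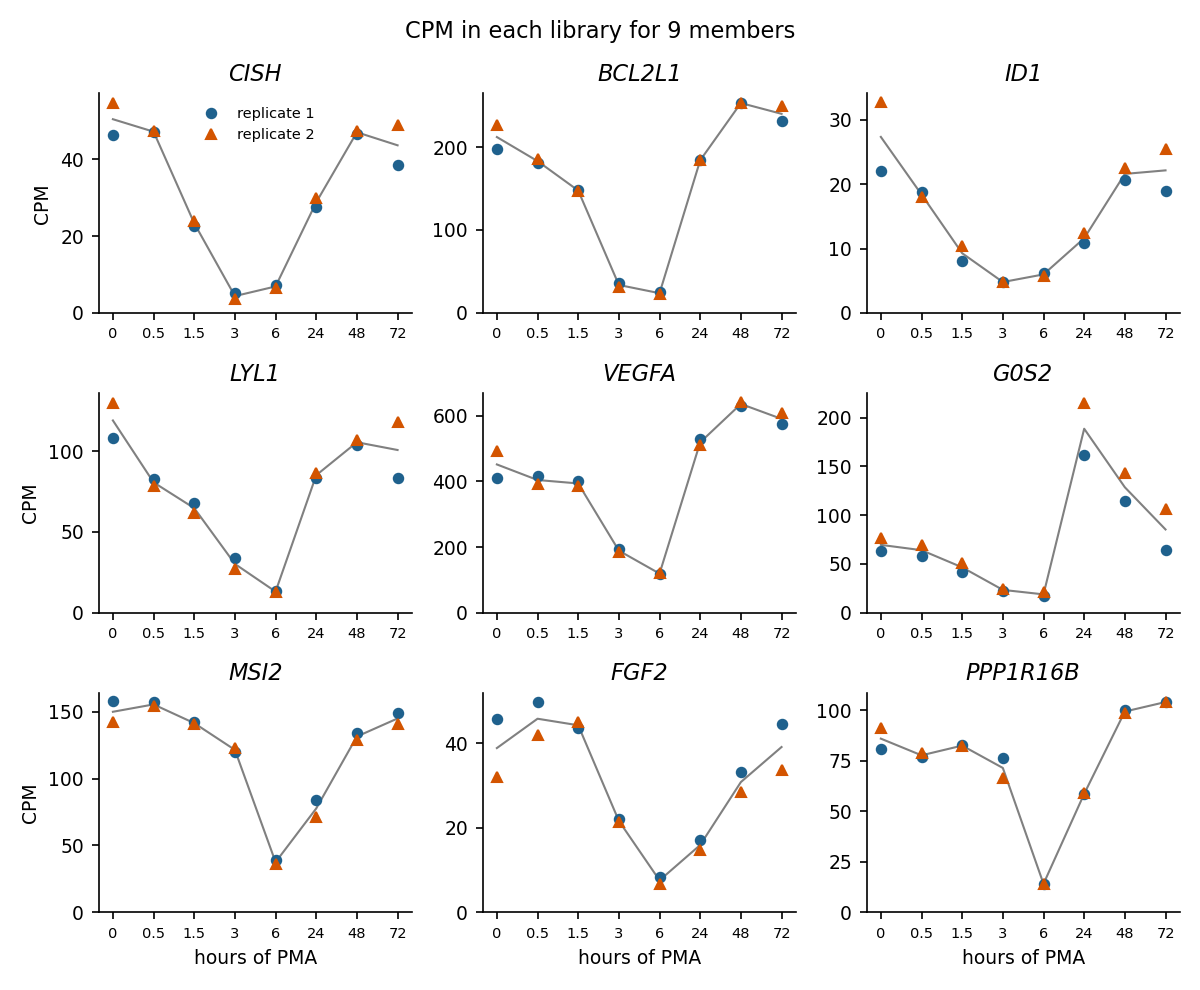
CPM of 9 members in each of the 16 libraries by hours of PMA (time points evenly spaced), with circles for replicate 1, triangles for replicate 2 and a line through the means. CISH, BCL2L1 and ID1 are near their floor by 3 h, MSI2 and PPP1R16B are low at 6 h but not at 3 h, and G0S2 passes its 0 h level at 24 h.

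Recovery was tested from 3 to 24 h. Here 129 of 178 genes (72.5%) were higher and 14 lower, with a median log2 difference of 0.61, against 30.7% higher and 27.2% lower of all genes tested and 36.2% higher of the 9509. Both 3 h libraries lay below both 24 h libraries in CPM for 147 of the 178 genes and for 48.5% of the 9509. The steepest rises were those of G0S2 (2.99), PARS2 (2.79), SMIM3 (2.77), CISH (2.67) and SALL2 (2.66), a zinc finger transcription factor. SALL2 was measured at 6.46 and 6.83 CPM at 3 h and 41.7 and 44 CPM at 24 h (SE 0.13, adjusted p = 1.32e-09). SMIM3, a small membrane protein, went from 5.52 and 5.36 CPM to 37.6 and 38.7 CPM over the same time (SE 0.12, adjusted p = 4.56e-10).

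From 24 to 48 h most members no longer moved past the threshold: 32 were higher and 5 lower, against 8.88% higher and 6.12% lower of all genes tested. With the GC trend removed, the split was 28 higher and 17 lower. Without replicate 1 or 2 at 24 h, or replicate 1 or 2 at 48 h, 13, 17, 13 and 12 genes in all were called in place of 37. Of the 60 genes below 0.75 at 24 h, 49 were back above it at 48 h and 11 were not. Those 11 were PGPEP1, ZBED10P, NOS3, CD84, VEGFB, APOL6, PLCB2, INTS3, RCBTB1, CCDC15 and NR1D2.

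Functions were used to sort 112 of the genes into 8 groups drawn up once the members and their values were known, and the groups describe the set without testing it. Among the 8 groups, the largest median fall was in the 18 transcription and chromatin regulators. Of these 15 were lower at 3 h than at 0.5 h (median log2 -0.88), beside 58.4% of all members. From 3 to 24 h 15 were higher (median 1.00), beside 72.5% of all members. LYL1 (ENSG00000104903, chr19:13099033-13103161), a basic helix-loop-helix factor of blood progenitors, was measured at 108 and 130 CPM at 0 h, 82.8 and 78.5 CPM at 0.5 h, 67.7 and 61.7 CPM at 1.5 h, 33.6 and 26.7 CPM at 3 h, 13.3 and 12.7 CPM at 6 h, 83.6 and 86.6 CPM at 24 h, 104 and 107 CPM at 48 h, and 83.4 and 118 CPM at 72 h. Each step down to 6 h separated its libraries, and the 24 h libraries were above those of 1.5 h. The log2 difference from 0.5 to 3 h was -1.14 (SE 0.16, adjusted p = 7.75e-05) and that from 3 to 24 h was 1.45 (SE 0.16, adjusted p = 4.75e-06).

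ID1 and ID3 differed in their return. ID1 was at 4.84 and 4.75 CPM at 3 h, 10.8 and 12.4 CPM at 24 h and 20.7 and 22.5 CPM at 48 h. ID3 was at 11.7 and 8.76 CPM at 3 h, 32.8 and 30.9 CPM at 24 h and 53.8 and 49 CPM at 48 h, so that its mean was 1.62 times the 0 h mean at 48 h where that of ID1 was 0.79. The difference between the 2 genes was not tested. MEF2C, a MADS-box factor, stood at 90.1 and 89.3 CPM at 0.5 h, 42.7 and 47.1 CPM at 3 h and 76.2 and 79.3 CPM at 24 h, with log2 differences of -0.73 (SE 0.12, adjusted p = 0.000191) and 0.76 (SE 0.12, adjusted p = 7.75e-05).

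TCF4, ETV4 and NFATC2 still stood above their 6 h level at 3 h by more than their libraries differed. This does not set them apart, since the 6 h levels chose the set. Both 6 h libraries lay below both 3 h libraries in 162 members, LYL1 and MEF2C among them. TCF4, a partner of such helix-loop-helix factors, held 51.9 and 54.8 CPM at 3 h against 79.1 and 80.7 CPM at 0.5 h and was at 13.6 and 11.5 CPM at 6 h. Its log2 difference from 0.5 to 3 h was -0.32 (SE 0.1, adjusted p = 0.0286) and became 0.06 with the GC trend removed. Without either replicate of 0.5 h or of 3 h it was between -0.28 and -0.36, with adjusted p from 0.0588 to 0.117. ETV4, an ETS factor, had 59 and 59.2 CPM at 0.5 h, 52.8 and 44.7 CPM at 3 h, a log2 difference of -0.00 (SE 0.13, adjusted p = 0.995), and 21.2 CPM in both 6 h libraries. NFATC2, a calcium-dependent factor, had 38.9 and 47 CPM at 3 h, 14.3 and 13.6 CPM at 6 h, 29.4 and 29 CPM at 24 h and 43.8 and 47.1 CPM at 48 h. Its 24 h level was below that of 3 h (log2 -0.58, SE 0.09, adjusted p = 0.00011) and its 48 h level above that of 24 h (0.56, SE 0.09, adjusted p = 0.0011). JADE2, part of a histone acetyltransferase complex, went from 26.4 and 26.5 CPM at 0.5 h to 10.2 and 8.55 CPM at 3 h and 4.58 and 3.9 CPM at 6 h.

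The lists of factor families give the surroundings of these genes. Of all 9509 protein-coding genes at 10 CPM or more, 11.7% were at 0.33 or less at 6 h and 1.87% are members. Of 92 helix-loop-helix, leucine zipper and homeobox factors at 10 CPM or more, 25 were at 0.33 or less at 6 h (27.2%) and 5 are members (5.43%; NFE2L3, LYL1, ID3, ID1 and TCF4). In that list 40 genes were lower and 20 higher at 3 h than at 0.5 h, with a median log2 difference of -0.23. Among 131 factors of other DNA-binding families, 26 were at 0.33 or less (19.8%) and 6 are listed as members (4.58%), one of which, RELL2, is a receptor-like protein caught by its name only. Among 17 immediate-early genes, 22 erythroid genes and 6 megakaryocyte and platelet genes at this level, none was a member. Of 182 chromatin genes, 16 were at 0.33 or less (8.79%) and 4 are listed as members (2.2%), among them JADE2, ING4 and PRMT6, and not every listed gene acts on chromatin, since the list was matched by name. The erythroid list held 6 genes at 0.33 or less at 6 h (27.3%), and no immediate-early gene was that low.

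Among the members were 12 signalling proteins of blood cells. Of these, 8 were lower at 3 h than at 0.5 h, beside 58.4% of all members. From 3 to 24 h 6 were higher and 4 lower. The shares in that step were 72.5% and 7.87% of all members, and 30.7% and 27.2% of all genes tested. Besides CISH the 12 proteins include BTK, a kinase below the B-cell receptor, the adaptor LCP2 (SLP-76), the phospholipases PLCG1 and PLCB2 and the adhesion receptor CD84. LCP2 was at 86.5 and 89.7 CPM at 0.5 h, 65.2 and 71.5 CPM at 3 h, 16.4 and 19.2 CPM at 6 h, 70 and 72.9 CPM at 24 h and 104 and 105 CPM at 72 h. Its difference from 0.5 to 3 h did not pass the test (log2 -0.1, SE 0.1, adjusted p = 0.454), and the 6 h libraries were the lowest of all 16.

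PLCB2 and CD84 were slow to return. PLCB2 had 22.8 and 21.7 CPM at 0.5 h, 16.5 and 15.4 CPM at 3 h, 5.2 and 5.8 CPM at 6 h, 10.9 and 10.3 CPM at 24 h, 15.5 and 16.4 CPM at 48 h and 18.8 and 22.9 CPM at 72 h. The level at 24 h was thus below that at 3 h, with a log2 difference of -0.63 (SE 0.13, adjusted p = 0.00115). With counts scaled from TPM by gene length, which allow for the length of the transcripts in use, it was -0.40 (adjusted p = 0.158). CD84 had 19.6 and 23.3 CPM at 3 h, 11.2 and 11.9 CPM at 6 h, 15.9 and 15.6 CPM at 24 h and 24.5 and 24.6 CPM at 48 h. Its log2 difference was -0.47 from 3 to 24 h (SE 0.09, adjusted p = 0.000637) and 0.56 from 24 to 48 h (SE 0.09, adjusted p = 0.00104). ARHGEF6, an exchange factor for small GTPases, and PPP1R16B, a subunit that targets protein phosphatase 1, were also lower at 24 h than at 3 h. ARHGEF6 had 77.9 and 81.6 CPM at 3 h, 26.4 CPM in both 6 h libraries and 53.2 and 56.4 CPM at 24 h (log2 -0.57, SE 0.1, adjusted p = 0.00017).

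PPP1R16B did not pass the test from 0.5 to 3 h. Its libraries read 76.7 and 78.6 CPM at 0.5 h, 82.7 and 82.2 CPM at 1.5 h, 76.2 and 66.6 CPM at 3 h, 14.1 CPM in both at 6 h, 58.4 and 58.8 CPM at 24 h, 100 and 98.6 CPM at 48 h and 104 in both at 72 h. The 3 h libraries stood next to those of 0.5 h (log2 0.15, SE 0.11, adjusted p = 0.304). The difference from 3 to 24 h was -0.32 (SE 0.11, adjusted p = 0.0192), and it was lost without replicate 1 of 3 h (-0.14, adjusted p = 0.273) or replicate 1 of 24 h (-0.28, adjusted p = 0.113), with counts scaled from TPM by gene length (-0.25, adjusted p = 0.105) and with only the time points compared in the fit (-0.33, adjusted p = 0.056). From 24 to 48 h it was 0.68 (SE 0.11, adjusted p = 0.000789). RASSF5, a RAS effector, had 132 and 129 CPM at 0.5 h, 91.3 and 88.5 CPM at 3 h and 40 and 39.3 CPM at 6 h. KCNN4, a calcium-gated potassium channel, stood at 26.5 and 28.1 CPM at 24 h, above its 18.4 and 21.1 CPM at 0 h.

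BCL2L1 led the 6 cell death and autophagy genes. Among them 4 were lower at 3 h than at 0.5 h, beside 58.4% of all members. At 24 h 5 were higher than at 3 h, beside 72.5% of all members. BCL2L1 (ENSG00000171552, chr20:31664452-31723989) was measured at 197 and 227 CPM at 0 h, 181 and 185 CPM at 0.5 h, 148 and 147 CPM at 1.5 h, 36.1 and 31.2 CPM at 3 h, 24.7 and 22.8 CPM at 6 h, 184 in both libraries at 24 h, 253 in both at 48 h, and 231 and 249 CPM at 72 h. Most of its fall lay between 1.5 and 3 h (log2 -1.93, SE 0.12, adjusted p = 4.15e-08), and from 3 to 24 h it rose by 2.41 (SE 0.12, adjusted p = 1.42e-09). TP53INP1, a p53-induced stress protein, went from 36.7 and 36.2 CPM at 0.5 h to 9.52 and 8.67 CPM at 3 h and 23 and 20.1 CPM at 24 h. BAX, which opens the mitochondrial outer membrane and opposes BCL-XL, kept 21.7 and 16.6 CPM at 3 h against 25.1 and 24.3 CPM at 0.5 h (log2 -0.09, SE 0.16, adjusted p = 0.71), and was at 9.09 and 9.37 CPM at 6 h and 32 and 31.8 CPM at 24 h. Of 32 genes of the fixed list of apoptosis and survival genes at 10 CPM or more, 4 were at 0.33 or less at 6 h (12.5%), and these 3 were back at 72 h (9.38%, beside 1.87% of all 9509 genes).

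Growth factors formed a small group of 5 with NOS3, the endothelial nitric oxide synthase, and the semaphorin receptor PLXNB1. VEGFA (ENSG00000112715, chr6:43770184-43786487), which drives the growth of blood vessels, was the most abundant of all 178 genes in CPM. It stood at 410 and 494 CPM at 0 h, 417 and 392 CPM at 0.5 h, 401 and 387 CPM at 1.5 h, 194 and 184 CPM at 3 h, 118 and 120 CPM at 6 h, 529 and 510 CPM at 24 h, 630 and 643 CPM at 48 h, and 574 and 608 CPM at 72 h. From 24 h on each library was above both 0 h libraries. The log2 difference was -0.86 from 1.5 to 3 h (SE 0.11, adjusted p = 5.22e-05) and 1.42 from 3 to 24 h (SE 0.11, adjusted p = 1.49e-07).

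Its relative VEGFB took another course. VEGFB had 28 and 32.3 CPM at 0.5 h, 26.1 and 24.6 CPM at 3 h, 8.94 and 10.5 CPM at 6 h, 16.1 and 16.3 CPM at 24 h, 25.4 and 27.4 CPM at 48 h and 25.1 and 30.6 CPM at 72 h. Its 24 h level was below the 3 h level (log2 -0.68, SE 0.16, adjusted p = 0.00269). FGF2, the basic fibroblast growth factor, went from 49.8 and 41.9 CPM at 0.5 h to 22 and 21.3 CPM at 3 h, 8.47 and 6.69 CPM at 6 h, 17.2 and 14.7 CPM at 24 h, 33.3 and 28.4 CPM at 48 h and 44.5 and 33.8 CPM at 72 h. The log2 difference from 0.5 to 3 h was -0.81 ( SE 0.18, adjusted p = 0.0025).

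The 23 members of mitochondria and metabolism included 13 lower at 3 h than at 0.5 h, beside 58.4% of all members, and none higher. At 24 h 15 were higher than at 3 h, beside 72.5% of all members, and none lower. G0S2, an inhibitor of the lipase that breaks down stored fat, was the member furthest above its 0 h level at 24 h. Its libraries read 62.7 and 76.2 CPM at 0 h, 22.4 and 24.2 CPM at 3 h, 16.7 and 20.7 CPM at 6 h, 162 and 215 CPM at 24 h, 114 and 143 CPM at 48 h and 64.5 and 106 CPM at 72 h. The mean at 24 h was 2.72 times that at 0 h, and the rise from 3 to 24 h was 2.99 (SE 0.24, adjusted p = 1.73e-07). The other 3 members above 1.33 at 24 h were AMPD2 (1.5), CCDC8 (1.47) and KCNN4 (1.38).

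SPR and SLC25A12 were lower at 3 h than at 0.5 h. SPR, which makes tetrahydrobiopterin, went from 8.95 and 10.2 CPM at 0.5 h to 4.33 and 3.99 CPM at 3 h, 1.28 and 1.05 CPM at 6 h and 13.6 CPM in both 24 h libraries. SLC25A12, a mitochondrial aspartate and glutamate carrier, went from 33.3 and 34.9 CPM to 13.3 and 13.6 CPM at 3 h, 6.64 and 5.51 CPM at 6 h and 28.1 and 30.7 CPM at 24 h. Of 264 genes in the list of mitochondrial ribosome, import and respiration at 10 CPM or more, 32 were at 0.33 or less at 6 h (12.1%, beside 11.7% of all 9509 genes) and 3 were members (1.14%, beside 1.87%).

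Of 16 genes for glycan synthesis and the secretory pathway, 7 were lower at 3 h than at 0.5 h, beside 58.4% of all members. From 3 to 24 h 14 were higher and 1 lower, beside 72.5% and 7.87% of all members. ST6GAL1, which adds terminal sialic acid, had 194 and 198 CPM at 0.5 h, 157 and 162 CPM at 1.5 h, 68.8 and 68.6 CPM at 3 h, 31.9 and 28.9 CPM at 6 h, 110 and 107 CPM at 24 h and 167 and 163 CPM at 48 h. Its return spanned both later steps, with log2 differences of 0.63 from 3 to 24 h (SE 0.08, adjusted p = 2.11e-05) and 0.52 from 24 to 48 h (SE 0.08, adjusted p = 0.000827). MGAT3, which adds the bisecting sugar of N-glycans, went from 14.9 and 16.4 CPM at 0.5 h to 7.75 and 7.82 CPM at 3 h, 2.49 and 2.61 CPM at 6 h and 22.8 and 23.2 CPM at 24 h. CHST11, a chondroitin sulfotransferase, was the 1 gene of the group lower at 24 h (37.7 and 38.6 CPM) than at 3 h (45.7 and 49.8 CPM; log2 -0.35, SE 0.08, adjusted p = 0.00248). With counts scaled from TPM by gene length that difference was -0.06 (adjusted p = 0.752).

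The 16 genes of centrosome, cilium and microtubules had the highest median ratio at 3 h among the 8 groups, 0.616. Of these 7 were lower at 3 h than at 0.5 h, beside 58.4% of all members. At 24 h 8 were higher and 1 lower than at 3 h, beside 72.5% and 7.87% of all members. TUBG1, the gamma-tubulin that nucleates microtubules, had 46.8 and 45 CPM at 3 h and 22.3 and 26.1 CPM at 6 h. CENPP, a centromere protein, was lower at 24 h (7.86 and 8.73 CPM) than at 3 h (11.5 and 14.5 CPM; log2 -0.66, SE 0.12, adjusted p = 0.00031). BBS4, a cilium trafficking protein, and ANAPC13, a subunit of the anaphase-promoting complex, had 10.7 and 9.76 CPM and 8.36 and 7 CPM at 6 h. The fixed list of cilium genes, with coiled-coil CCDC genes included by name, held 107 genes at 10 CPM or more. Of these 20 were at 0.33 or less at 6 h (18.7%, beside 11.7% of all 9509 genes) and 8 were members (7.48%, beside 1.87%). Most of the 8 were CCDC genes (CCDC28A, CCDC34, CCDC15, CCDC8 and CCDC69), and the others were BBS4, IFT140 and TTC30B. The share is therefore not one of cilium genes alone.

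Among 16 genes of DNA repair and RNA handling, 10 were lower at 3 h than at 0.5 h, beside 58.4% of all members. Higher at 24 h than at 3 h were 12, beside 72.5% of all members. MSI2 (ENSG00000153944, chr17:57255851-57684685), an RNA-binding protein of blood stem cells, belonged to the late fallers. Its libraries read 157 and 154 CPM at 0.5 h, 142 and 141 CPM at 1.5 h, 120 and 123 CPM at 3 h, 38.8 and 36.3 CPM at 6 h, 84 and 71.4 CPM at 24 h, 134 and 129 CPM at 48 h and 149 and 141 CPM at 72 h. The 3 h libraries were close to those of 0.5 h on the TMM scale (log2 -0.09, SE 0.09, adjusted p = 0.478), and the 24 h level was below that of 3 h (-0.68, SE 0.09, adjusted p = 1.93e-05). That call was lost with counts scaled from TPM by gene length (-0.27, adjusted p = 0.0704). The rise from 24 to 48 h was 0.68 (SE 0.09, adjusted p = 0.000176).

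ZC3H6, a CCCH zinc finger protein, fell early, from 45.9 and 46.7 CPM at 0.5 h to 15.4 and 19.1 CPM at 3 h (log2 -1.16, SE 0.1, adjusted p = 9.88e-07). SNAPC5, of the complex that starts small nuclear RNA genes, went from 31.7 and 32 CPM to 14.4 and 16.1 CPM over the same step (log2 -0.8, SE 0.11, adjusted p = 3.9e-05). POLR3GL, an RNA polymerase III subunit, had 21.5 and 23 CPM at 0.5 h and 13.9 and 16.6 CPM at 3 h (log2 -0.28, SE 0.14, adjusted p = 0.132). XPO7, a nuclear transport receptor, had 206 and 213 CPM at 0.5 h, 129 and 135 CPM at 3 h and 51 and 49.2 CPM at 6 h. Its log2 difference from 0.5 to 3 h was -0.4 (SE 0.08, adjusted p = 0.00172), and -0.14 (adjusted p = 0.255) with the GC trend removed. INTS3, an Integrator subunit, is listed at 0 in both 6 h libraries and also in replicate 1 of 0.5, 24 and 48 h, where replicate 2 had 12.5, 16.7 and 9.56 CPM. It was the only member with an exact 0 in any library, and it was called in none of the 5 comparisons tested. Its place among the genes below 0.75 at 24 and 48 h rests on means of these unequal pairs.

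**Figure D4:**
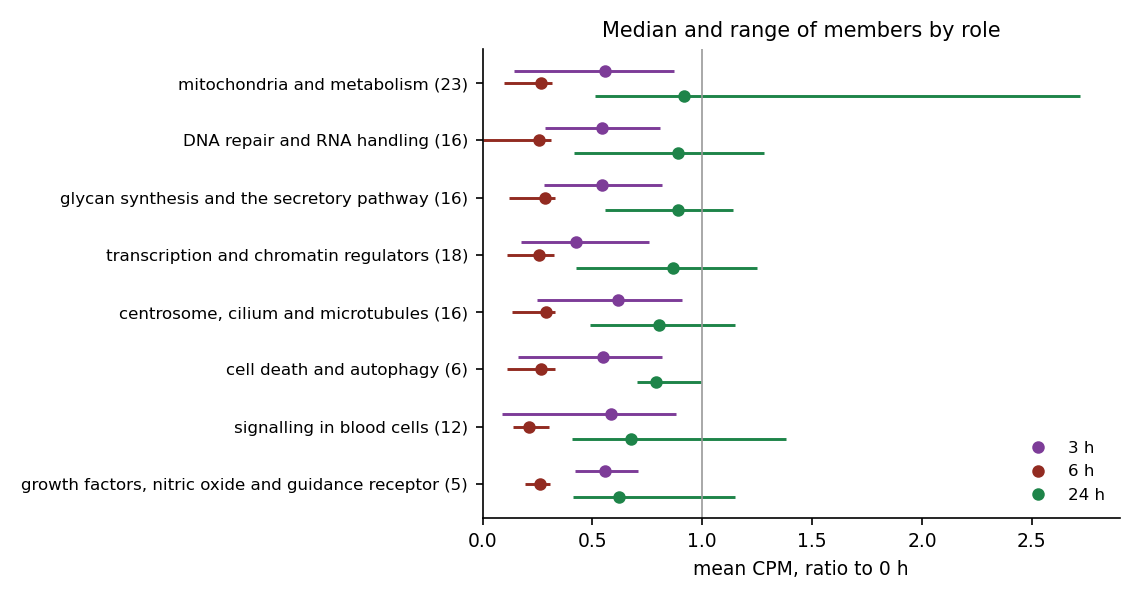
Ratio of mean CPM to 0 h at 3, 6 and 24 h for the 8 groups of members sorted by function (number of genes in brackets); points are medians and lines run from the lowest to the highest gene. At 3 h the medians run from 0.427 in transcription and chromatin regulators to 0.616 in centrosome, cilium and microtubule genes. INTS3, listed at 0, sets the low end of the DNA repair and RNA handling group at 6 h.

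The remaining 66 genes held some of the deepest troughs. IQSEC2 (ENSG00000124313, chrX:53225828-53321350), an exchange factor for ARF GTPases, had 73 and 71.6 CPM at 0.5 h, 67 and 64 CPM at 1.5 h, 25.4 and 25.3 CPM at 3 h, 3.63 and 4.43 CPM at 6 h, 67.2 and 68.4 CPM at 24 h and 83.7 and 105 CPM at 72 h. Its 6 h mean was 0.0453 of that at 0 h. The log2 difference was -1.24 from 0.5 to 3 h (SE 0.12, adjusted p = 1.86e-06) and 1.39 from 3 to 24 h (SE 0.12, adjusted p = 3.44e-07).

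LRRC61 and ZBED10P (named ZBED6CL in GENCODE release 29) reached 0.0455 and 0.0535 of the 0 h mean at 6 h. ZBED10P (chr7:150329789-150332721) lies within the span of LRRC61 (chr7:150322639-150338150), so the share of reads given to each depends on the authors' quantification. ZBED10P had 64.1 and 71.6 CPM at 0 h, 3.99 and 3.26 CPM at 6 h, 30.6 and 28.8 CPM at 24 h and 48.8 and 46.2 CPM at 48 h. LRRC61 had 10.3 and 11.5 CPM, 0.56 and 0.429 CPM, 6.71 and 6.84 CPM and 11.1 and 12.1 CPM at these times. PPP1R14A, an inhibitor of myosin phosphatase, was at 12.1 and 9.78 CPM at 3 h and 1.03 and 1.41 CPM at 6 h. In all, 86 of the 178 genes overlap the span of another gene of the tables, and the strand setting of the quantification is not given in the sources used here.

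PPM1F, a protein phosphatase, and TNRC18 were among the 5 most abundant members. PPM1F had 150 and 130 CPM at 3 h, 73.4 and 68.8 CPM at 6 h and 262 and 259 CPM at 24 h, a rise of 0.86 from 3 to 24 h (SE 0.11, adjusted p = 1.84e-05). TNRC18 had 127 and 103 CPM at 3 h, 59.3 and 61.6 CPM at 6 h and 167 and 171 CPM at 24 h, and its rise of 0.51 (SE 0.15, adjusted p = 0.0119) was lost without replicate 2 of 3 h or of 24 h and with counts scaled from TPM by gene length (0.31, adjusted p = 0.059). MMD, a membrane protein of the progestin and adipoQ receptor family, stood at 18.4 and 18.1 CPM at 0.5 h, 3.43 and 3.77 CPM at 3 h, 8.22 and 8.92 CPM at 24 h and 13 and 12.8 CPM at 48 h. C1orf74 had 9.22 and 10.7 CPM at 0.5 h, 4.07 and 5.11 CPM at 1.5 h, 1.4 and 1.65 CPM at 3 h and 10 and 8.85 CPM at 24 h. TMEM94, TMEM109 and CCDC69 were named by their lists, and CCDC69 rose from 17.1 and 18.2 CPM at 3 h to 33.3 and 32.7 CPM at 24 h (log2 0.87, SE 0.09, adjusted p = 2.46e-06). With counts scaled from TPM by gene length that difference was 0.25 (adjusted p = 0.131).

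Genes that were low early and genes that were low late were found in each class of return but one. Of the 29 genes at 0.33 or less at 3 h, 16 were in the band at 24 h, 12 below and 1 above. Of the 22 genes still at 0.75 or more at 3 h, 15 were in the band at 24 h and 7 below. Of the 127 between, 83 were in the band, 41 below and 3 above. The late fallers with a low 24 h level included MSI2, ARHGEF6, PPP1R16B, CHST11, CENPP and SLC44A5. All 14 genes called lower at 24 h than at 3 h were MSI2, ARHGEF6, PPP1R16B, CHST11, NFATC2, FGF2, CD84, VEGFB, APOL6, ICA1, PLCB2, CENPP, SLC44A5 and WIPF3. With counts scaled from TPM by gene length, 7 of these calls were lost, those of MSI2, CHST11, PPP1R16B, PLCB2, ICA1, SLC44A5 and WIPF3. The calls of FGF2 (adjusted p 0.0505 to 0.172) and WIPF3 (0.0729 to 0.164) were lost without any one of the 4 libraries. That of ICA1 was lost without either 3 h library or replicate 1 of 24 h (adjusted p 0.076 to 0.223), and that of SLC44A5 without replicate 2 of 3 h or of 24 h (0.0628 and 0.197).

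The members' transcripts were shorter and richer in GC than those of all protein-coding genes at 10 CPM or more at 0 h. The main transcript had a median of 2730 nt against 3180 nt, 8 exons against 9, 53.4% GC against 47.8%, and a 3′ untranslated region of 859 nt against 1161 nt. The other genes that were at 0.33 or less at 6 h had medians of 2687 nt, 8 exons, 55.5% GC and 904 nt, nearer to those of the members. The 0 h level of the members ran from 10.2 to 452 CPM with a median of 30 CPM, against 48.4 CPM in all 9509. They came from 22 chromosomes, led by chromosome 1 with 19 and chromosome 19 with 15.

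At the level of single transcripts the picture was alike for most genes. The transcript that led a gene at 0 h by TPM was also the leading one at 6 h in 141 genes and at 72 h in 147. In 157 genes this transcript was itself at 0.33 or less of its 0 h TPM at 6 h, and 114 of these were back in the band at 72 h. Some transcripts, with 20.1 to 30.2% of their gene's TPM at 0 h, held most of their level at 6 h. They included protein-coding transcripts of RINL (1 of its 0 h TPM) and WIPF3 (0.783, with 2.59 and 0 TPM at 0 h). They also included retained-intron transcripts of 2 genes. That of TSEN54, a tRNA splicing subunit, held 0.818 of its 0 h TPM at 6 h (7.32 and 6.16 TPM at 0 h, 5.96 and 5.08 TPM at 6 h), and that of TNRC18 held 0.85 (13.9 and 17.8 TPM against 12.1 and 14.8 TPM). These values are the authors' estimates for transcripts that share most of their sequence.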

How the data were processed

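The deposited tables, one per library, list 177456 Ensembl transcripts with estimated counts (NumReads, not normalized) and TPM (abundance scaled by effective length to the same sum in each library), per the file headers. Salmon, Trim Galore 0.4.3, HISAT2 2.1.0 and DESeq2 are among the tools in the submitters' processing notes, which name both hg19 and hg38; the annotation and strand setting are not given in the sources used here. Of the transcripts, 167027 (94.1%) matched GENCODE release 29 (GRCh38), and the others carried 3.01 to 3.75% of reads. The authors' estimated counts were summed per gene, rounded for testing, and divided by the library sum for CPM.

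All 16 libraries were fitted with edgeR 4.0.16 (R 4.3.3; TMM factors 0.854 to 1.139, filterByExpr, quasi-likelihood test, Benjamini-Hochberg over 17559 genes, called under 0.05). The fit estimates spread over all time points (8 residual degrees of freedom); 2 against 2 libraries could not pass 0.05 in an exact permutation test. In data simulated for 3 h against 0.5 h over 17032 genes, 87% of 2-fold and 99% of 4-fold changes were called, with 5 unchanged genes. For 48 h against 24 h, simulated with no change, 0 were called. The simulation changed only a small share of genes, all well covered, with as many raised as lowered. It thus did not cover low counts or a shift in library composition.

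The members, lists and tests were chosen with earlier results of these data known. Genes were named by a rule: the most abundant members, the lowest at 6 h, the largest falls from 0.5 to 3 h and rises from 3 to 24 h, those lower from 3 to 24 h, those at each limit, the 2 most abundant of each list with at least 3 members, and any at 0 in 1 library of a time point only. Other members named, the 8 groups and the STAT motif were chosen after their values were seen. Some genes that the rule or the lists hold are not reported here. Alternatives covered scaling, DESeq2 1.42.0, filters, GC trend, replicate block and left-out libraries.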

Additional observations from a re-analysis of the deposited data

How the results depend on the processing

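The number of genes that met the conditions moved most with a 6 h limit of 0.25, from 178 to 74, and became 96 with TMM-scaled CPM and 103 with DESeq2 size factors; replicate 1 or 2 alone gave 160 and 206. The 6 genes lower from 0.5 to 1.5 h became 3 at an adjusted p under 0.01, 15 scaled to total counts and 23 with only the time points compared in the fit, and 3 to 4 without 1 library. The 37 called from 24 to 48 h became 15, 47 and 64 under these settings, and 12 to 17 without 1 library. The counts of genes lower from 1.5 to 3 h (94), lower from 0.5 to 3 h (104) and higher from 3 to 24 h (129) stayed within 1.5 times under every alternative run. Scaling to total counts moved the median of all genes from 0.5 to 3 h to -0.24 and that of the members to -0.74, with 153 lower. Of 3264 values of the members followed under the alternatives, 2901 kept direction and call, 361 lost the call and 2 reversed, both TCF4 from 0.5 to 3 h (0.06 with the GC trend removed, with and without the block). In an alternative chosen after seeing the data, without replicate 2 of 0 h, the counts in the 5 comparisons were 7, 95, 106, 130 and 43.

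With the replicate number as a block, 8, 97, 106, 131 and 40 members were called in the same directions. Differences between replicates correlated between time points at -0.30 to 0.60 (median 0.27, 24 of 28 pairs over 0.1, across 9983 genes). Replicates of the same number thus mostly deviated together, but not in every pair of times, and no label ties a number to a shared culture or day, so the block was kept as an alternative. At these depths no member but INTS3 had fewer than 10 reads in any library.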
